A study of Mus musculus with 47 samples.

Results

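Cldn5, Pecam1, Abcb1a, Mfsd2a, Slco1a4, Slco1c1, Vwf, Tek, Flt1 and Ly6c1 are genes that mark the endothelium of brain vessels or carry out its barrier functions. They were taken by symbol from a table of bulk RNA-seq counts of the hypothalamus, which held all 10 of them among 14221 genes. The table covers 47 libraries, each from 1 male Lep ob/ob mouse labelled as 11 weeks old. These mice lack leptin and are obese, and every group shares that genotype. Mice received 1 injection into the cerebral ventricles, of 3 µg FGF1 (recombinant human protein) or of vehicle, and the vehicle mice were pair-fed to the FGF1 mice. Hypothalami were collected on Day 1 from 10 FGF1 and 4 vehicle mice, on Day 5 from 9 FGF1 mice and 2 vehicle groups of 7 mice each, and on Day 42 from 5 FGF1 and 5 vehicle mice. The labels call 1 vehicle group of Day 5 diabetic and the other vehicle groups non-diabetic. The study's methods enrolled mice by high blood glucose, so these words are used here only as the names of groups. The tissue is a punch of the hypothalamus with all its cell types, in which fewer endothelial cells cannot be told apart from less RNA per endothelial cell.

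The capillary wall of the brain is a sheet of endothelial cells sealed by tight junctions, of which claudin-5 (Cldn5) is the main seal. Traffic across it is run by transporters. Abcb1a (P-glycoprotein) pumps drugs and lipophilic compounds back into the blood, Mfsd2a carries lysophosphatidylcholine with omega-3 fatty acids inward and holds down vesicular transcytosis, and Slco1a4 and Slco1c1 carry organic anions and thyroid hormones. Tek (TIE2) is the receptor for angiopoietins and Flt1 (VEGFR1) binds VEGF. Pecam1 (CD31) joins neighbouring endothelial cells, Vwf is the clotting factor stored and secreted by endothelium, and Ly6c1 is a surface protein of brain endothelium. Some are also made elsewhere: Slco1c1 by astrocytes, Pecam1 by leukocytes and platelets, and Ly6c1 by monocytes.

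Promoter windows, from 250 bases before to 50 bases after the start in RefSeq (GRCm38.p6), were found for 8 of the 10 genes. None was listed for Pecam1 and Vwf. The windows of the genes with the largest changes on Day 1 among those with an entry are shown, with those of Mfsd2a, Slco1c1 and Slco1a4, which were lower after FGF1, before that of Flt1, which was higher. Each is read 5′ to 3′ on the strand of the gene. Capitals mark the ETS core GGAA (the family of Erg and Fli1) and the LEF/TCF core TCAAAG (the end point of WNT signalling), on either strand.
Mfsd2a, chr4:122961139-122961438, minus strand: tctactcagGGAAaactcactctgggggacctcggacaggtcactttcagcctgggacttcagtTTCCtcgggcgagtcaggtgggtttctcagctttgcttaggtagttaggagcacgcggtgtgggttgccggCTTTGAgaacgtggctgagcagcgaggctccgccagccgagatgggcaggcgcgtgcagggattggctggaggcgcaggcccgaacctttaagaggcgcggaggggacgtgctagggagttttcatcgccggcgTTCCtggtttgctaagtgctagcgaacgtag
Slco1c1, chr6:141524104-141524403, plus strand: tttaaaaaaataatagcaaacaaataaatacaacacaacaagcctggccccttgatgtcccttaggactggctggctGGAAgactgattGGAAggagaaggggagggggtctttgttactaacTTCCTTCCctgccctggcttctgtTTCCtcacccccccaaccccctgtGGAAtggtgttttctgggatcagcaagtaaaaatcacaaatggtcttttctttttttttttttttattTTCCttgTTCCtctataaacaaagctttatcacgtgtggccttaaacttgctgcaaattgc
Slco1a4, chr6:141856171-141856470, minus strand: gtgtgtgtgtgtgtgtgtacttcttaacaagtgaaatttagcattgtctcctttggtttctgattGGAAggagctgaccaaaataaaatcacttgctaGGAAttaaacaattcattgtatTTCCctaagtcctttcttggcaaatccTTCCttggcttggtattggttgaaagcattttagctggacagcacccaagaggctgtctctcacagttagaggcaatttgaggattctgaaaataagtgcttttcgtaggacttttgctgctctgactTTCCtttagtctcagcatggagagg
Flt1, chr5:147725962-147726261, minus strand: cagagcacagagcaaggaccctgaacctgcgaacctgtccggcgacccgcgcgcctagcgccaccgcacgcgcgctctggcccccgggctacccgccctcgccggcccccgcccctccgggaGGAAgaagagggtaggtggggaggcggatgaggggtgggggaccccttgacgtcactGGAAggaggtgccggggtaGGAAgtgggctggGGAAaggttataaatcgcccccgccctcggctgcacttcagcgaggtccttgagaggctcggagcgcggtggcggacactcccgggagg

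The ETS core stood 8 times in the window of Slco1c1, 5 times in that of Slco1a4, 4 times in that of Flt1 and 3 times in that of Mfsd2a. It was present in 8 of the 9 entries of these genes (Ly6c1 has 2 entries) and in 95.98% of all 32851 promoter entries, and the window of Cldn5 held none. The LEF/TCF core stood once in the window of Mfsd2a and 2 times in that of Abcb1a (whose RefSeq start lies upstream of the gene start given below), that is, in 2 of 9 entries against 16% of all. The SOX core ACAAT stood 3 times in the window of Slco1a4 and 2 times in that of Tek, against 31.0% of all entries with at least 1. The STAT pair TTCNNNGAA, found in 8.30% of all entries, was in none of the 9. All motifs were searched on both strands, and these letters describe the windows and do not show binding.

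All 10 genes were counted in every library. Totals ran from 7579695 to 47082403 counts, except 1 FGF1 library of Day 1 with 1243280, in which Tek had 14 counts and Flt1 86. Libraries of Day 5 were shallower than the others (median 9411647 in the FGF1 group), apart from 2 FGF1 libraries of 27922117 and 30009258. The sample sheet gives each day a single preparation code, so a day cannot be told apart from its preparation, and levels are compared within a day. At most 2 genes were at 0 in any Day 5 library, against 78 to 539 in libraries of the other days, so genes scarce on Day 5 have few rows in the table. Values below are normalized counts, that is, CPM scaled by TMM factors. A gene passed with an adjusted p under 0.05 in the edgeR test, and is called a DEG where the log2 fold change also exceeded 0.5 in either direction.

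Per kilobase of exon, in the vehicle mice of Day 1, Mfsd2a (20.3 ± 3.70, SD, n = 4) and Ly6c1 (16.7 ± 3.70) were the most abundant of the 10 and Vwf the least (0.787 ± 0.0931). Slco1a4 (10.4 ± 2.67), Slco1c1 (10.1 ± 2.49) and Cldn5 (7.47 ± 1.66) followed, and then Abcb1a (4.81 ± 0.979), Pecam1 (3.91 ± 0.425), Flt1 (3.68 ± 0.764) and Tek (2.34 ± 0.580). In this order, the ranges of mean ± SD did not overlap from Cldn5 to Abcb1a and from Tek to Vwf, and they overlapped between all other neighbours. Ly6c1 has a near-identical neighbour, Ly6c2, which was not analysed here, so reads could have been shared between them. Abcb1a resembles Abcb1b, and Slco1a4 belongs to a family of similar genes, so the counts of both carry the same doubt. An exon of Abcb1a also overlaps Gm42686 on the opposite strand, and the use of strand in the counting is not given in the sources used here.

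**Figure D1:**
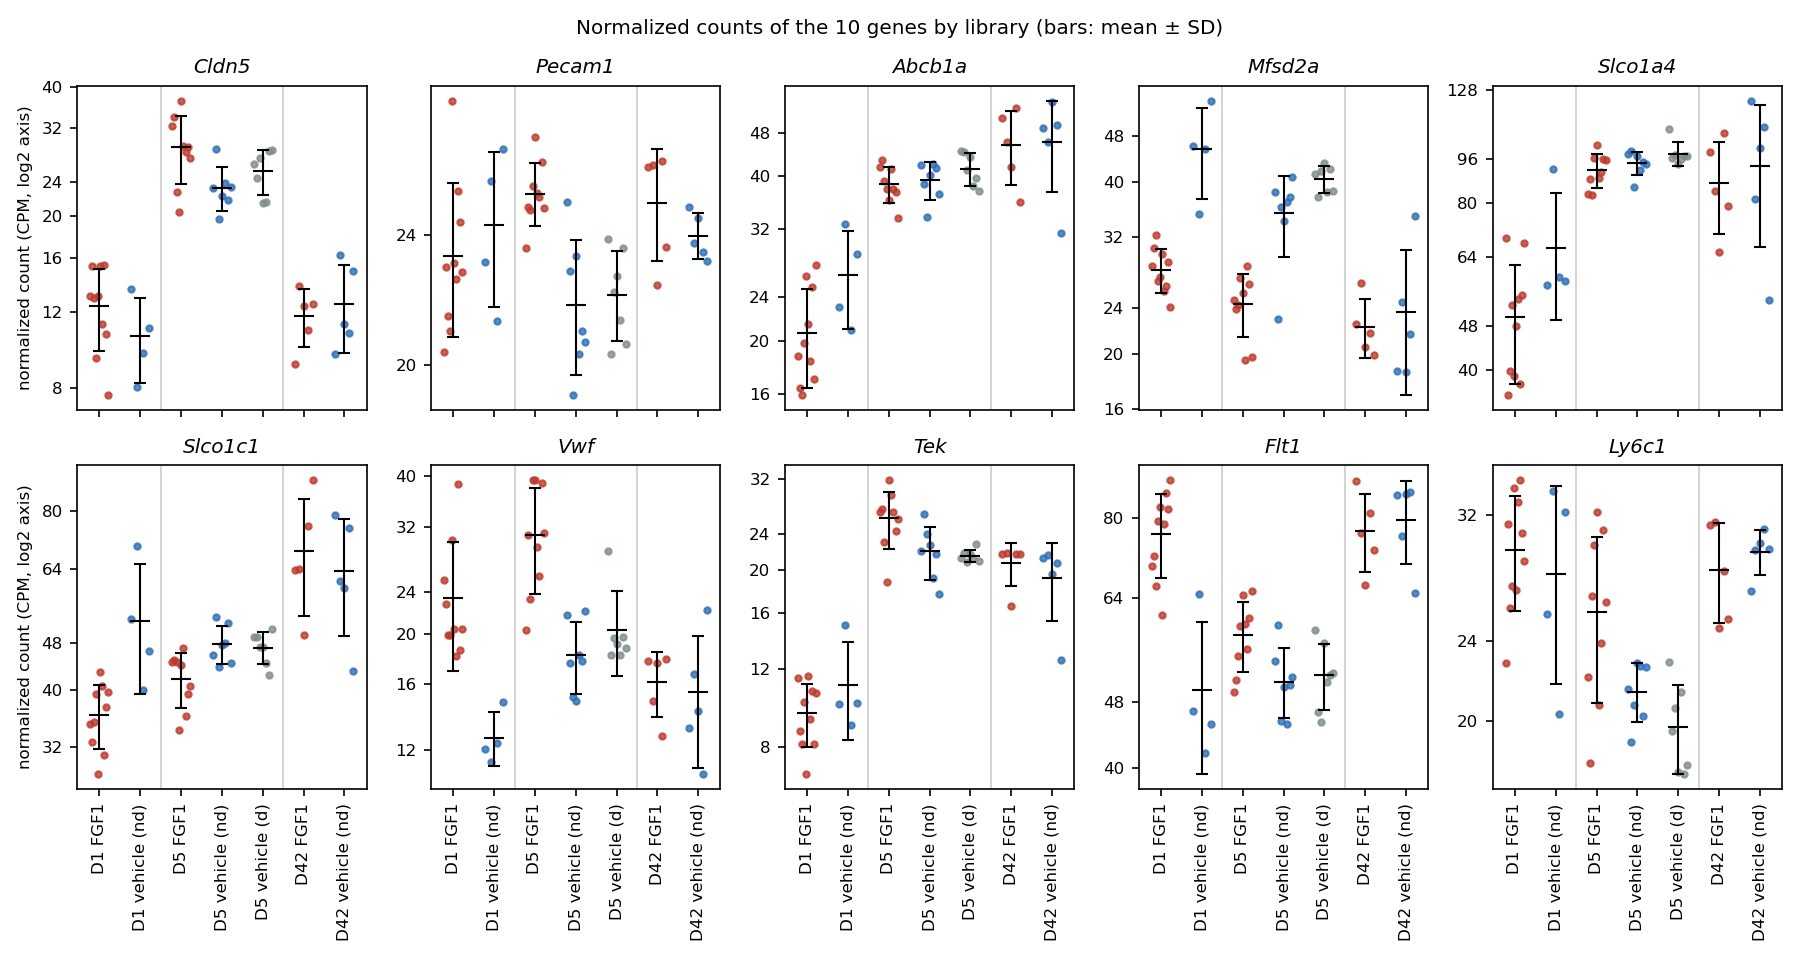
Normalized counts (vertical axis, log2 scale) of each gene in every library, by group (horizontal axis; D1, D5 and D42 are the days, nd and d the vehicle groups labelled non-diabetic and diabetic). Points are mice, red for FGF1, blue and grey for vehicle, and bars show mean ± SD; on Day 1 the FGF1 points of Vwf lie above all vehicle points and those of Mfsd2a below them, while on Day 42 the FGF1 and vehicle points of these genes overlap.

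On Day 1, FGF1 mice had more Vwf and Flt1 mRNA and less Mfsd2a, Slco1c1, Slco1a4 and Abcb1a mRNA than vehicle mice. Vwf and Flt1 rose by log2 fold changes of 0.88 and 0.63, and the transporters fell by 0.34 to 0.70 on the log2 scale. Of the 10 genes, 2 passed as higher, where 23.4% of all genes did, and 4 passed as lower, where 21.6% of all genes did. As DEGs, 2 were higher (Vwf and Flt1; 11.5% of all genes) and 2 were lower (Mfsd2a and Slco1c1; 8.05% of all genes). The median log2 fold change of the 10 genes was −0.14, beside 0.0068 over all genes tested.

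Vwf (chr6:125546774-125686679) had normalized counts of 12.0, 11.4, 12.4 and 14.8 in the 4 vehicle mice of Day 1. The FGF1 mice ran from 18.1 through a median of 20.4 to 38.7, so the lowest FGF1 mouse lay above the highest vehicle mouse. All FGF1 mice exceeded all vehicle mice in 7.56% of all genes. The log2 fold change was 0.88 ± 0.18 (SE; adjusted p = 6.77e-05), a 1.84-fold difference, and the two-sided exact permutation test gave p = 0.0020, the smallest it can give with 4 and 10 mice.

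Flt1 (chr5:147561604-147726011) stood at 46.8, 64.8, 41.8 and 45.2 in the vehicle mice and at 61.1 to 89.0 with a median of 78.9 in the FGF1 mice. Of the 10 FGF1 mice, 9 exceeded every vehicle mouse, and the highest vehicle value came from the second vehicle mouse. The difference was 0.63 ± 0.098 (log2, SE; adjusted p = 8.84e-07; exact permutation p = 0.0040).

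Among the transporters, Mfsd2a (chr4:122946850-122961188) separated the groups completely. It was at 46.1, 35.1, 45.7 and 55.4 in the vehicle mice and between 24.2 and 32.3 (median 27.9) in the FGF1 mice, and 6.81% of all genes had every FGF1 mouse below every vehicle mouse. Mfsd2a fell by 0.70 ± 0.12 on the log2 scale (SE; adjusted p = 2.50e-06; exact permutation p = 0.0020). This was the largest drop of the 10.

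Slco1c1 (chr6:141524368-141570177) was at 52.8, 70.04, 39.98 and 46.5 in the vehicle mice and between 28.9 and 42.8 in the FGF1 mice, 8 of which lay below every vehicle mouse. It fell by 0.52 ± 0.12 on the log2 scale (SE; adjusted p = 0.00037). The vehicle mouse at 70.04 was again the second one. Without it the log2 fold change was −0.35 (adjusted p = 0.021), and Slco1c1 was no longer a DEG.

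Slco1a4 and Abcb1a fell by less, and their calls rested on single vehicle mice. Slco1a4 (chr6:141805440-141856199) was at 92.0 in the second vehicle mouse and at 56.9, 58.8 and 57.9 in the others, against 36.1 to 69.3 in the FGF1 mice. Its log2 fold change was −0.44 ± 0.14 (SE; adjusted p = 0.0091), and −0.25 (adjusted p = 0.19) without that mouse. Abcb1a (chr5:8660077-8748575) was at 23.1, 32.7, 20.9 and 28.8 in the vehicle mice and at 15.9 to 27.5 in the FGF1 mice, with a log2 fold change of −0.34 ± 0.12 (SE; adjusted p = 0.018). Its adjusted p was 0.20 without the second vehicle mouse and 0.066 without the fourth. In a fit of the Day 1 libraries alone neither passed (adjusted p = 0.057 for Slco1a4 and 0.097 for Abcb1a), and the exact permutation test gave p = 0.076 for Slco1a4 and 0.066 for Abcb1a.

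The other 4 genes did not pass on Day 1. Cldn5 (chr16:18776847-18778262) had a log2 fold change of 0.22 ± 0.15 (SE), with vehicle mice at 8.05 to 13.6 and FGF1 mice at 7.71 to 15.5. Pecam1 (chr11:106654217-106750628) differed by −0.05 ± 0.071, Tek (chr4:94739289-94874976) by −0.22 ± 0.13 and Ly6c1 (chr15:75044018-75048830) by 0.10 ± 0.11. The groups overlapped in each of them.

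**Figure D2:**
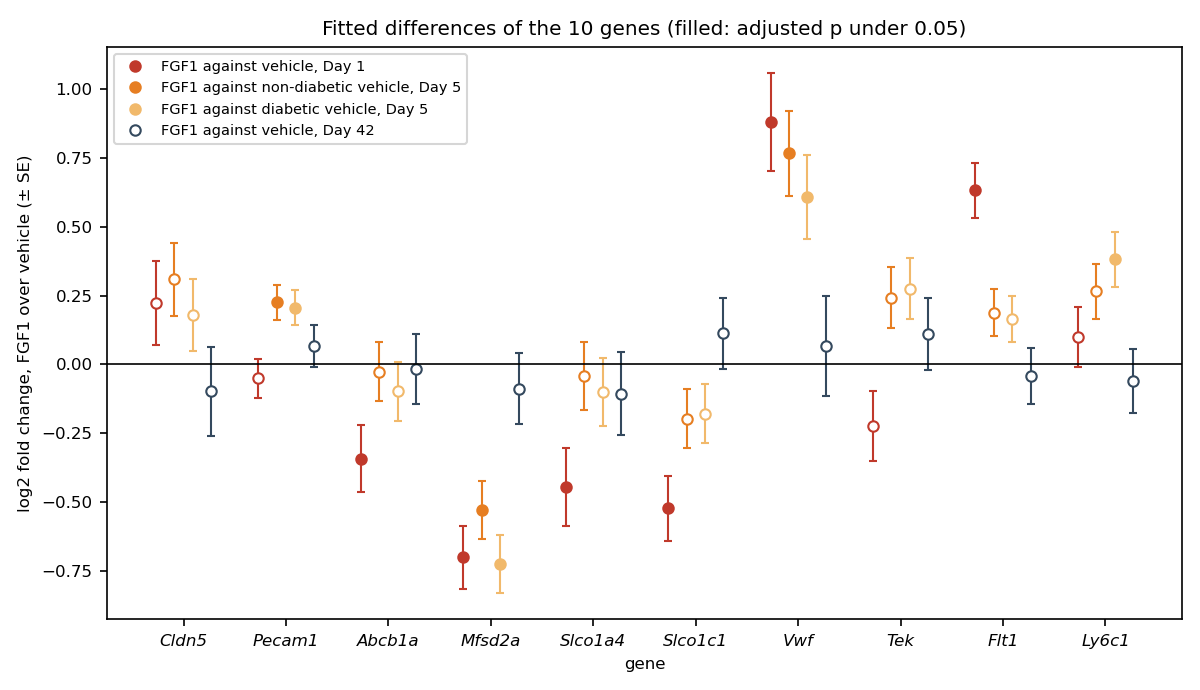
Fitted log2 fold change of FGF1 over vehicle (vertical axis) with its SE for each gene (horizontal axis) in the 4 FGF1 comparisons; filled circles passed at an adjusted p under 0.05. Mfsd2a lies between −0.73 and −0.53 and Vwf between 0.61 and 0.88 on Days 1 and 5, and no circle is filled on Day 42.

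Markers of other cell types also moved on Day 1, when 23.4% of all genes passed as higher and 21.6% as lower. Summed normalized counts were 1252 to 1560 in FGF1 mice and 1630 to 1780 in vehicle mice over 9 astrocyte endfoot genes, of which 4 passed as lower and 1 as higher. Over 7 of 8 tanycyte and ependymal genes the sums were 79.0 to 136 and 145.5 to 181, with 3 genes lower and none higher. Choroid plexus genes were measured for 4 of 8 (Ttr and Folr1, the defining markers, were not analysed here), with sums of 20.96 to 38.4 and 45.4 to 58.5, and Kcnj13, the potassium channel of that epithelium, was at 0 in the lowest FGF1 library. Neuron genes summed to 2807 to 3654 and 3888 to 4886, with 3 of 7 lower. The 2 measured genes of 11 for leukocytes, Ptprc (CD45) and Ccr2, both rose, with sums of 3.26 to 13.5 and 2.87 to 3.37. Red blood cell genes were measured for 5 of 7, with sums of 79.0 to 99.3 and 74.6 to 88.7. Microglia genes were higher in 4 of 6 cases and lower in 1 (Tmem119 1.15, Aif1 0.88, P2ry12 −0.66), and leptomeningeal genes higher in 2 of 8 and lower in 3 (Lum 2.24, Slc6a13 −2.71, Igf2 −1.72). Of the 3 measured pituitary genes, Pomc, which hypothalamic neurons also make, rose by 1.71 ± 0.47. The part of these cell types in the values of the 10 genes was not tested. The 20 other pan-endothelial genes summed to 297 to 409 in FGF1 mice and to 220 to 287 in vehicle mice.

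On Day 5, Mfsd2a was again lower and Vwf higher in FGF1 mice, against either vehicle group, and Pecam1 was slightly higher. Both comparisons share the same 9 FGF1 mice, so they are not independent of each other. Against the non-diabetic vehicle mice, 2 of the 10 genes passed as higher and 1 as lower, where 3.25% and 1.4% of all genes did, and 1 of the 10 was a DEG in each direction (1.31% and 0.232% of all genes). Against the diabetic vehicle mice, 3 passed as higher and 1 as lower, where 5.79% and 3.42% of all genes did, and again 1 was a DEG in each direction (2.36% and 0.499% of all genes). The median log2 fold changes of the 10 were 0.21 and 0.17, beside −0.0064 and −0.0071 over all genes.

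Mfsd2a ran from 19.5 to 28.5 (median 24.9) in the FGF1 mice, from 23.0 to 40.7 (median 36.8) in the non-diabetic and from 37.6 to 43.1 (median 41.3) in the diabetic vehicle mice. All FGF1 mice lay below all diabetic vehicle mice, which 2.45% of all genes showed, whereas the lowest non-diabetic vehicle mouse lay within the FGF1 range. The log2 fold change was −0.53 ± 0.11 (SE; adjusted p = 0.00088) against the non-diabetic and −0.73 ± 0.11 (adjusted p = 3.03e-06) against the diabetic vehicle mice. The exact permutation test gave p = 0.0014 and 0.00017, the second being the smallest it can give.

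Vwf ran from 20.3 to 39.3 (median 30.8) in FGF1 mice, from 14.8 to 22.1 (median 17.8) in non-diabetic and from 18.2 to 28.8 (median 19.1) in diabetic vehicle mice. Of the 9 FGF1 mice, 8 exceeded all non-diabetic and 6 exceeded all diabetic vehicle mice. Vwf rose by 0.77 ± 0.15 (log2, SE; adjusted p = 0.00082) and by 0.61 ± 0.15 (adjusted p = 0.0058).

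Pecam1 ran from 23.6 to 27.6 in FGF1 mice, from 19.2 to 25.1 in non-diabetic and from 20.3 to 23.9 in diabetic vehicle mice. Its log2 fold changes were 0.23 ± 0.064 (SE; adjusted p = 0.029) and 0.21 ± 0.064 (adjusted p = 0.031), with an adjusted p of 0.077 in both comparisons without the 2 deepest FGF1 libraries. Ly6c1 passed against the diabetic vehicle mice alone, at 0.38 ± 0.10 (adjusted p = 0.0091, and 0.051 without these 2 libraries). It ran from 18.2 to 32.2 in the FGF1 mice and from 17.8 to 22.9 in that vehicle group.

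The other genes did not pass on Day 5 in the edgeR fit of all libraries. Their log2 fold changes against the non-diabetic and the diabetic vehicle mice were 0.31 and 0.18 for Cldn5, 0.24 and 0.27 for Tek, 0.19 and 0.16 for Flt1, and −0.20 and −0.18 for Slco1c1. Abcb1a differed by −0.03 and −0.10 and Slco1a4 by −0.04 and −0.10. SEs were 0.084 to 0.13. A fit of the Day 5 libraries alone passed 8 of the 10 genes against the non-diabetic and 7 against the diabetic vehicle mice, adding Tek, Flt1 and Slco1c1 in both and Cldn5 and Ly6c1 against the non-diabetic mice. That fit also passed more genes of the whole table, 20.9% and 30.8% of all genes in the 2 comparisons, counted in either direction. Limma with sample quality weights, fitted to all libraries, added the same genes as that fit and likewise passed 8 and 7 of the 10, where 24.1% and 33% of all genes passed. The exact permutation test gave p under 0.05 for 8 of the 10 genes in each of the 2 comparisons, before any adjustment for the 50 tests made, where 33.4% and 39.4% of all genes had such a p.

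Other markers moved on Day 5 as well. Of all genes, 3.25% passed as higher and 1.4% as lower against the non-diabetic vehicle mice, and 5.79% and 3.42% against the diabetic ones. Astrocyte endfoot genes summed to 1248 to 1428 in FGF1 mice, to 1024 to 1061 in non-diabetic and to 1010 to 1144 in diabetic vehicle mice, and 4 of 9 passed as higher in both comparisons. Microglia genes summed to 249 to 302, 196 to 304 and 184 to 210, with 4 of 6 higher against the non-diabetic and 5 of 6 against the diabetic vehicle mice. Ptprc rose (log2 fold change 0.63 and 0.98). Tanycyte and ependymal genes summed to 96.98 to 133.1, 92.53 to 124.5 and 87.53 to 124.1, and Gpr50, an orphan receptor of tanycytes, rose by 0.90 and 0.83. Of the 7 measured, 1 passed as higher against the non-diabetic vehicle mice, and 2 as higher and 1 as lower (Dio2, −0.57) against the diabetic ones. Neuron genes summed to 1898 to 2412, 2349 to 2514 and 2200 to 2717, and none of the 7 passed. Leptomeningeal genes passed as higher in 3 of 8 cases against the non-diabetic (Igf2 1.22, Lum 1.19, Slc6a13 1.02) and in 1 against the diabetic vehicle mice (Igf2 0.88), and Aqp4, the water channel of astrocyte endfeet, rose by 0.98 and 1.01. The 20 other pan-endothelial genes summed to 353 to 413, 319 to 382 and 322 to 370. The part of these cells in the values of the 10 genes was not tested.

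Between the diabetic and the non-diabetic vehicle mice of Day 5, none of the 10 genes passed, and no gene of the table did (0% of all genes; 193 at an unadjusted p under 0.05, none of them among the 10). Log2 differences ran from −0.12 for Ly6c1 to 0.20 ± 0.11 (SE) for Mfsd2a. The exact permutation test gave p = 0.012 for Mfsd2a, the only one of the 10 under 0.05, where 5.42% of all genes had such a p.

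By Day 42 no difference was detected in the 10 genes. None passed, and neither did any other gene (0% of all genes; 776 at an unadjusted p under 0.05, none of them among the 10). The count over all genes rested on single libraries, since 25 genes were DEGs as higher and 6 as lower without FGF1 mouse 1, and 1 as higher without FGF1 mouse 2, none of them among the 10. DESeq2 and limma also called none of the 10. Log2 fold changes ran from −0.11 ± 0.15 (SE) for Slco1a4 to 0.11 ± 0.13 for Slco1c1. Mfsd2a was at 22.5, 26.6, 20.6, 21.7 and 19.9 in the FGF1 mice and at 18.7, 24.6, 18.6, 21.6 and 34.8 in the vehicle mice. Vwf was at 17.8, 14.8, 17.5, 12.8 and 17.9 in the FGF1 mice and at 13.2, 16.7, 14.2, 10.8 and 22.2 in the vehicle mice. Choroid plexus genes summed to 26.2 to 204.5 (median 37.2) in the FGF1 mice and to 31.0 to 47.1 (median 37.3) in the vehicle mice. The part of choroid plexus in the values of the 10 genes was not tested. The groups overlapped in both Mfsd2a and Vwf, and the highest vehicle value of each came from the fifth vehicle mouse.

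Whether the FGF1 effect itself differed between days was tested as a difference of contrasts, with the non-diabetic vehicle mice as the control on Day 5. From Day 1 to Day 42, 4 of the 10 genes changed in effect. Mfsd2a (0.61 ± 0.17, SE; adjusted p = 0.0071) and Slco1c1 (0.64 ± 0.18; adjusted p = 0.0061) passed as higher, where 11.2% of all genes did. Vwf (−0.81 ± 0.25; adjusted p = 0.013) and Flt1 (−0.67 ± 0.14; adjusted p = 0.00028) passed as lower, where 14.3% did. All of these changes run toward no difference on Day 42. With limma and sample quality weights, Slco1c1 (adjusted p = 0.082) and Vwf (adjusted p = 0.30) did not pass.

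From Day 1 to Day 5, the effect on Flt1 fell by 0.44 ± 0.13 on the log2 scale (SE, adjusted p = 0.0075), where 14.2% of all genes passed as lower. Pecam1 (0.28 ± 0.095; adjusted p = 0.026) and Tek (0.47 ± 0.17; adjusted p = 0.034) passed as higher, where 12.4% did. Tek lay below 0 on Day 1 and above it on Day 5 without passing on either day, and its change had an adjusted p of 0.25 without the second vehicle mouse of Day 1 and of 0.053 with limma. Limma passed Slco1a4 instead (0.41; adjusted p = 0.020), and without the third vehicle mouse of Day 1 Slco1c1 passed as well (0.44; adjusted p = 0.045). The change of Pecam1 had an adjusted p of 0.076 without the second vehicle mouse of Day 1 and of 0.088 without the fourth. The effects on Vwf and Mfsd2a differed by −0.11 ± 0.23 and 0.17 ± 0.16 between these days. None of the 10 passed from Day 5 to Day 42, where 0.942% of all genes did. There Vwf changed by −0.70 ± 0.24 (adjusted p = 0.18) and Mfsd2a by 0.44 ± 0.17 (adjusted p = 0.27). Without the fifth vehicle mouse of Day 42 the change of Mfsd2a was 0.62 (adjusted p = 0.025), and with limma it was 0.67 (adjusted p = 0.022).

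To set the 10 genes against the endothelium as a whole, each was also expressed as a log2 difference from the mean of 20 other pan-endothelial genes in the same library. These 20 genes had a median log2 fold change of 0.23 on Day 1, and of 0.23 and 0.15 on Day 5, so the scale moves with them. On Day 1 the 4 transporters were lower by 0.53 to 0.86, with an exact permutation p of 0.0020 for Mfsd2a and Slco1c1, 0.0060 for Abcb1a and 0.042 for Slco1a4. Vwf was higher by 0.65 (p = 0.0020, exact) and Flt1 by 0.45 (p = 0.012, exact), and Pecam1 was lower by 0.24 (p = 0.0080, exact). In all, 7 of the 10 genes had an exact p under 0.05 on this scale, where 40.8% of all genes did when expressed in the same way.

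On Day 5 the same 4 transporters were lower on this scale against both vehicle groups. Mfsd2a was lower by 0.72 against the non-diabetic and by 0.89 against the diabetic vehicle mice, Slco1c1 by 0.41 and 0.35, Slco1a4 by 0.26 and 0.27, and Abcb1a by 0.24 and 0.27. Exact permutation p ran from 0.00017 to 0.0045 over these 8 differences. Such p-values were common on this scale, since 65.1% and 57.1% of all genes had an exact p under 0.05, and so did 5 of the 10 genes in each comparison, so that the count says nothing particular about them. Slco1a4 lay between 2.68 and 3.07 in the FGF1 mice and between 3.02 and 3.24 in each vehicle group. Vwf was higher by 0.51 and 0.40 (exact p = 0.0019 and 0.011), and the differences of Pecam1, Cldn5, Tek, Flt1 and Ly6c1 were between −0.03 and 0.18 with exact p of 0.166 or more. On Day 42 the differences ran from −0.05 (Cldn5) to 0.15 (Tek), with exact p of 0.28 or more. These p-values are not adjusted for the 50 tests on this scale, and the scale was chosen after the data had been seen.

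**Figure D3:**
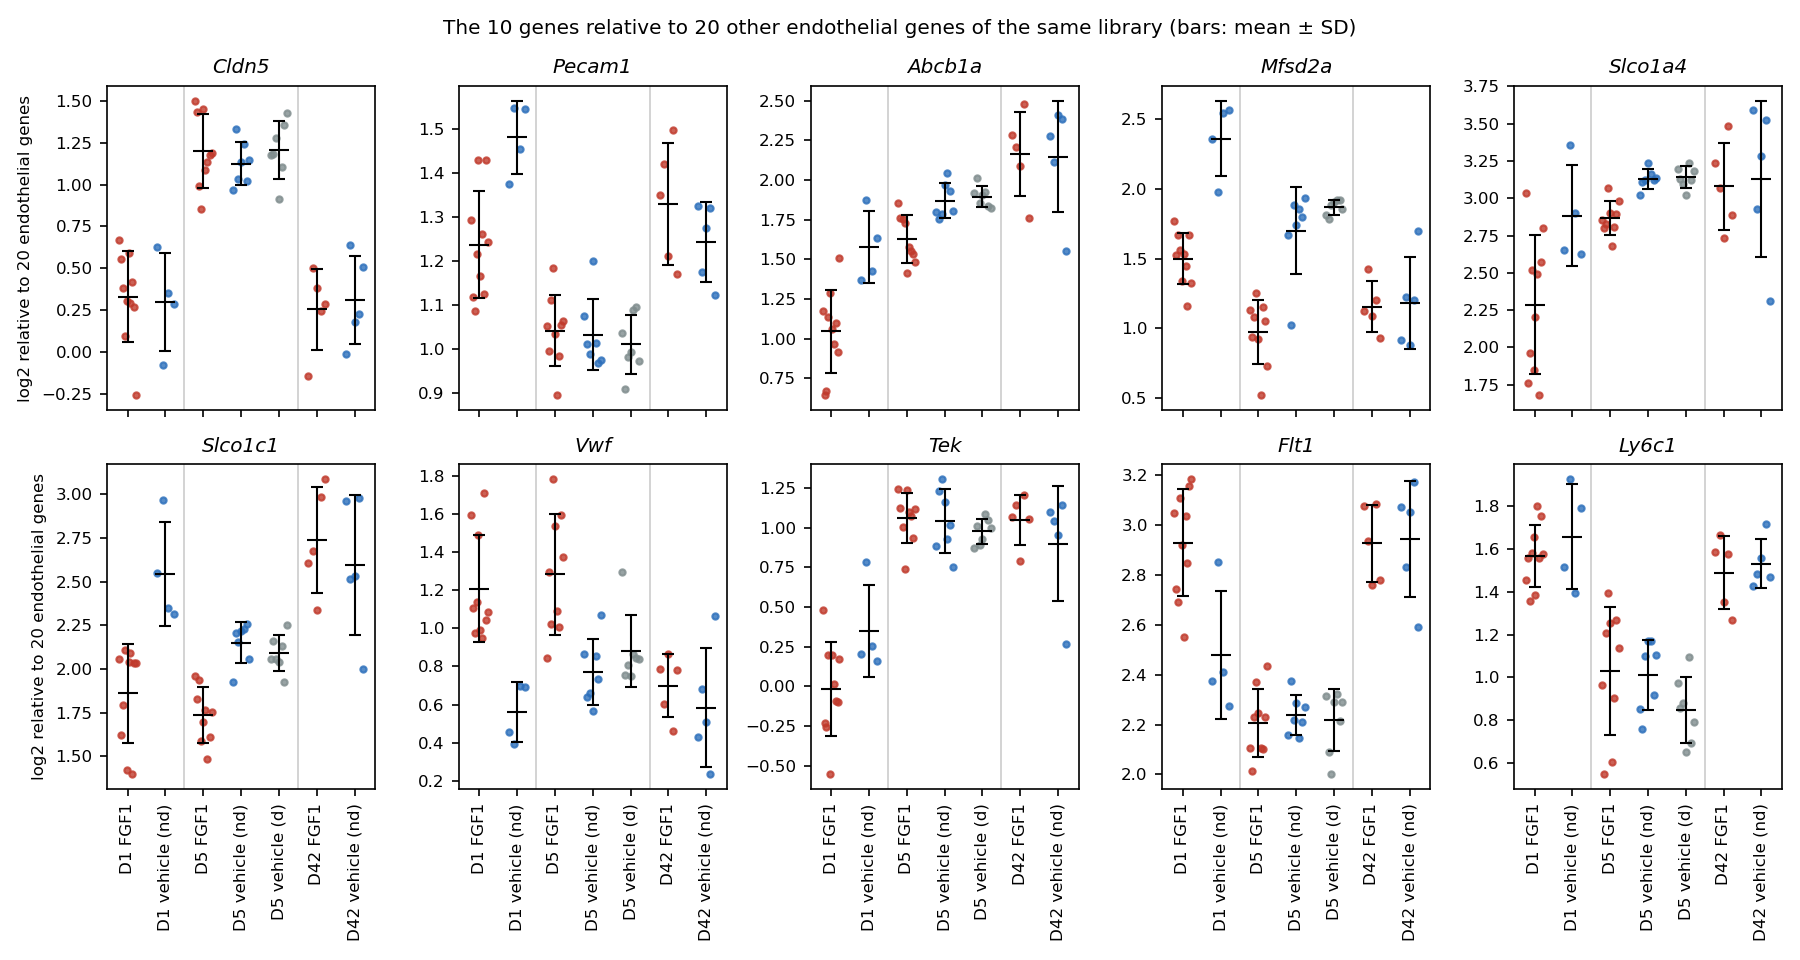
Each gene relative to the mean of 20 other pan-endothelial genes of the same library (vertical axis, log2 difference) by group (horizontal axis, as in the plot of normalized counts); points are mice and bars mean ± SD. On Day 5 the FGF1 points of Mfsd2a average 0.98, against 1.70 and 1.87 in the 2 vehicle groups, and those of Slco1a4 average 2.87, against 3.13 and 3.14.

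Within groups, the 10 genes did not vary as 1 unit. Deviations of log2(CPM + 0.5) from the group mean were compared over the 47 libraries, which share depth and dissection within a mouse. Of 45 pairs, 7 had Pearson's r above 0.5 and 17 had r below 0, with a median of 0.10. The highest values joined Slco1c1 with Tek (0.67), Slco1a4 with Slco1c1 (0.62) and Slco1a4 with Tek (0.59). Mfsd2a ran against Slco1c1 (−0.53), Tek (−0.53) and Flt1 (−0.52), and Cldn5 against Slco1a4 (−0.53). Against the mean of the other 9, Pecam1 was closest (0.62) and Mfsd2a was opposite (−0.39). Outside the 10, the genes closest to their mean deviation were Cast (0.62), Foxn3 (0.62), Litaf (0.61), Creb5 (0.61) and Tgfbr2 (0.61), whose Spearman's rho ran from 0.46 to 0.62. Without the 2 libraries farthest from the median, which are vehicle mice 2 and 3 of Day 1, r ran from 0.49 to 0.67.

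**Figure D4:**
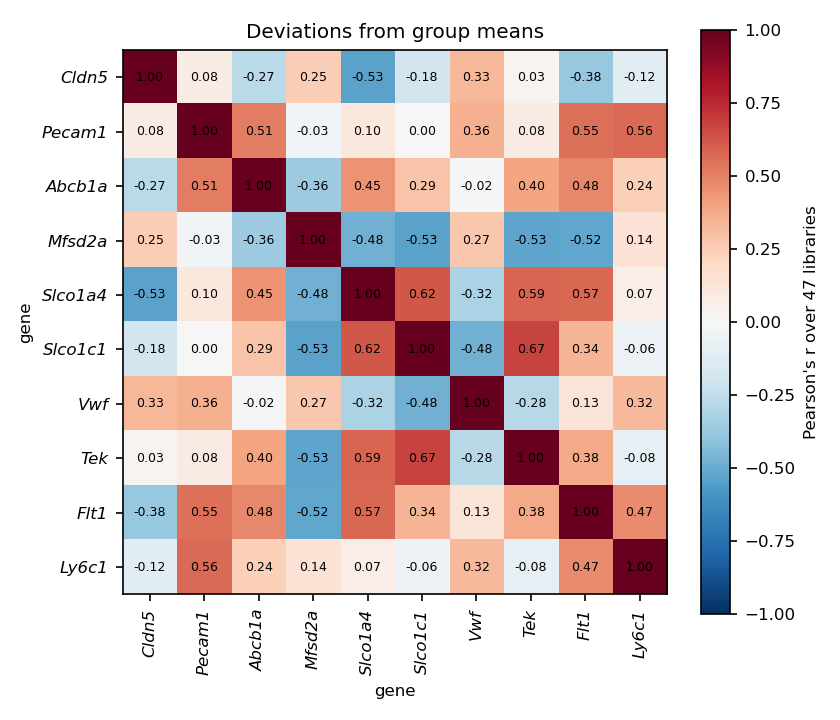
Pearson's r between deviations from group means of log2(CPM + 0.5) for each pair of the 10 genes, over 47 libraries (both axes list the genes; colour and figures give r). The highest value off the diagonal is 0.67, for Slco1c1 and Tek, and Mfsd2a and Cldn5 hold most of the negative values.

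The wider set of vascular genes gives the surroundings of these 10. On Day 1, 7 of 20 other pan-endothelial genes passed as higher and 2 as lower (median log2 fold change 0.23). Of all genes, 23.4% passed as higher and 21.6% as lower, and the Day 1 counts of the lists that follow stand beside the same shares. Cdh5, the VE-cadherin of adherens junctions, rose by 1.14 ± 0.21 (log2, SE), Nos3, the endothelial nitric oxide synthase, by 0.73 ± 0.18 and Slc2a1, the glucose transporter of the barrier, by 0.61 ± 0.15. Exons of Nos3 overlap Atg9b, and those of Slc2a1 overlap Gm12868, on the opposite strand. Cdh5 ran from 11.2 to 43.4 in FGF1 mice and from 9.57 to 12.9 in vehicle mice, so FGF1 mice differed widely among themselves. Among 12 tight and adherens junction genes, 4 passed as higher and 1 as lower (median 0.14), among them Marveld2 (tricellulin, 0.78). None of the 12 passed as lower without the shallowest FGF1 library. Without the second vehicle mouse, the genes that passed as lower numbered 1 among the other pan-endothelial genes.

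Other transporters split in direction on Day 1. Of 16 measured, 6 passed as higher and 3 as lower (median 0.11). Slc38a5, an amino acid transporter, rose by 1.22 ± 0.30 and Cavin1, a coat protein of caveolae, by 1.03 ± 0.12, while Slc22a8 (OAT3), an organic anion transporter of the barrier, fell by 1.204 ± 0.21 on the log2 scale. Abcb1b, the paralogue of Abcb1a, had a log2 fold change of 0.23 ± 0.15, which did not pass.

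Of 17 genes of the WNT signalling that maintains the barrier, 7 passed as higher and 2 as lower (median 0.19), and 1 as lower without the second vehicle mouse. The ligand Wnt7b rose by 1.58 ± 0.12, the co-receptor Lrp5 by 1.01 ± 0.16 and the nuclear factor Tcf7 by 0.65 ± 0.17. In the VEGF and angiopoietin pathway, to which Flt1 and Tek belong, 8 of 18 other genes passed as higher and 2 as lower (median 0.21), and again 1 as lower without that mouse. Esm1, a gene of sprouting tip cells, rose by 2.70 ± 0.42 and Angpt2, a ligand of TIE2, by 1.39 ± 0.28, while Apln fell by 1.02 ± 0.11. Esm1 was scarce, at 1.63 to 18.9 normalized counts in FGF1 mice and at 0.962 to 1.92 in vehicle mice.

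Endothelial activation genes had a median of 1.43 on Day 1, over 11 of 17 genes, with 6 higher and 1 lower. Socs3, an inhibitor of cytokine signalling, rose by 4.502 ± 0.22 and Cebpd by 2.18 ± 0.35. Both are also made by glia, so the tissue counts do not place them in endothelium. Arterial genes passed as higher in 4 of 9 cases and lower in 1 (Mgp 1.31, Unc5b 1.12, Gja4 1.01), and venous genes as higher in 3 of 6 and lower in 1 (Icam1 1.81, Slc38a5 1.22). Without the second vehicle mouse no arterial or venous gene passed as lower, and without the shallowest FGF1 library no arterial gene did. Of 11 pericyte genes 3 were higher and 3 lower (Kcnj8 1.12, Anpep 1.02, Notch3 0.76). The lower ones, named after their values were seen, were Vtn (−0.63), Atp13a5 (−0.54) and Rgs5 (−0.39), and the pericyte sum was 185 to 278.1 (median 224.5) in FGF1 mice and 215.4 to 287.2 (median 264.9) in vehicle mice. Of 6 smooth muscle genes 1 was higher and 2 were lower (Tagln 1.00, Myh11 −1.01, Myl9 −0.87). Genes of fenestrated capillaries, which line the median eminence, were measured for 5 of 9, Tek among them, and 1 was higher (Esm1) and 1 lower (Plpp3, −0.54).

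**Figure D5:**
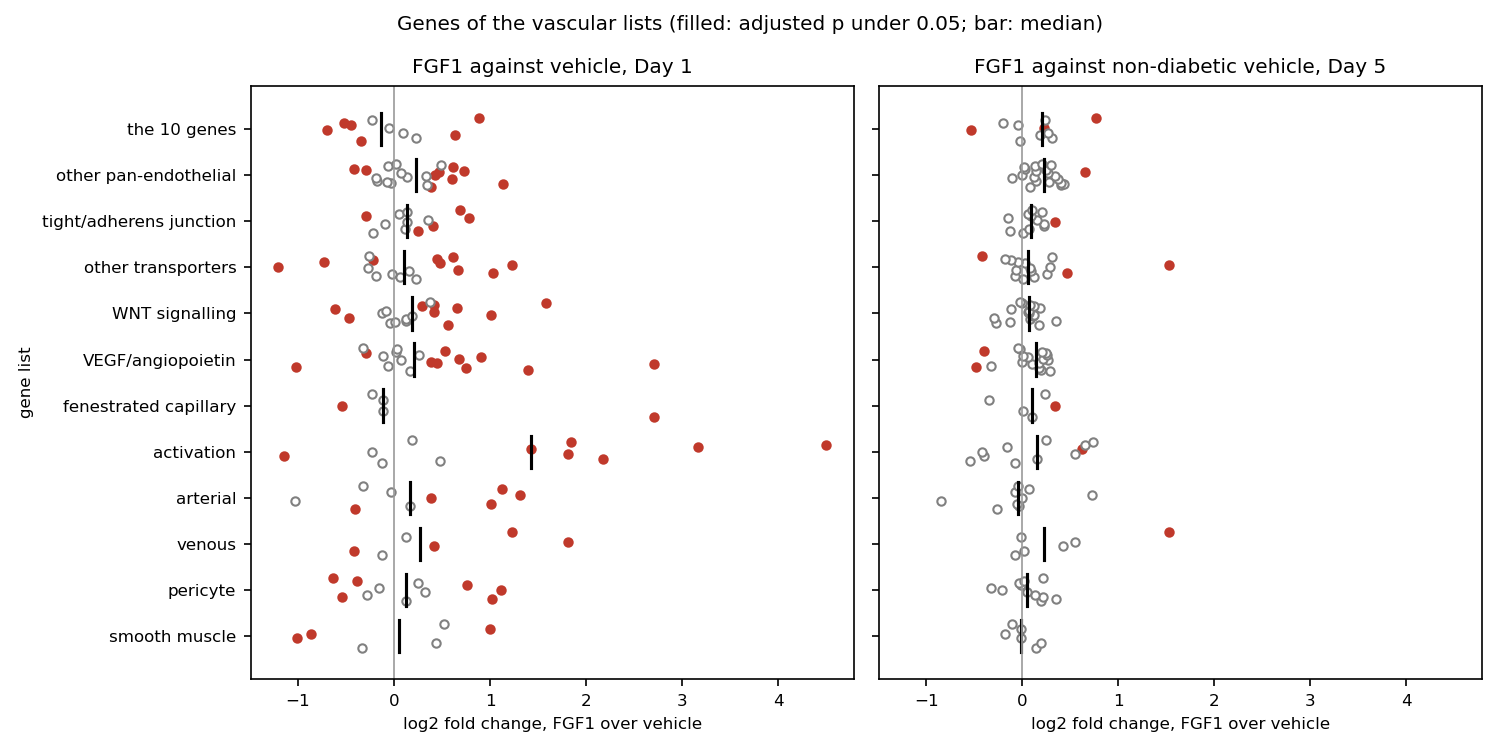
Log2 fold change of FGF1 over vehicle (horizontal axis) for each gene of the vascular lists (vertical axis) on Day 1 and, against the non-diabetic vehicle mice, on Day 5; filled circles passed at an adjusted p under 0.05 and bars are list medians. Activation genes have a median of 1.43 on Day 1 and 0.16 on Day 5, and the transporters reach from −1.204 (Slc22a8) to 1.22 (Slc38a5) on Day 1.

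On Day 5 few vascular genes outside the 10 passed. Of all genes, 3.25% passed as higher and 1.4% as lower against the non-diabetic vehicle mice. Against the diabetic vehicle mice these shares were 5.79% and 3.42%. Ly6a (Sca-1) rose by 0.65 ± 0.11 against the non-diabetic and by 0.755 ± 0.11 against the diabetic vehicle mice. Of the 20 other pan-endothelial genes, 1 passed as higher in the first comparison and 2 in the second. Junction genes passed as higher in 1 and 3 of 12 cases, none of them a DEG. In the VEGF and angiopoietin pathway, 2 of 18 genes passed as lower in each comparison and 1 as higher in the second, again without a DEG. Activation genes passed as higher in 1 of 11 cases (Plat 0.62) and 2 of 11 (Icam1 0.91). The study lists Plat in an astrocyte module raised by FGF1 on Day 5, so tissue counts do not place it in endothelium. Without the 2 deepest FGF1 libraries, 1 junction gene and 1 pan-endothelial gene passed as higher against the diabetic vehicle mice, and of the VEGF and angiopoietin genes none passed as higher and 1 as lower. Of the 16 other transporters, 2 passed as higher and 1 as lower in the first comparison and 3 and 1 in the second. Slc38a5 rose by 1.53 ± 0.27 and by 1.60 ± 0.27 in the 2 comparisons. It ran from 2.96 to 9.02 in FGF1 mice and from 0.871 to 2.62 over both vehicle groups, with no overlap, and was scarce. All FGF1 mice exceeded all non-diabetic vehicle mice in 2.38% of all genes, and all diabetic ones in 3.63%. The transferrin receptor Tfrc differed by −0.41 ± 0.11 and −0.52 ± 0.11, and Plvap, the diaphragm protein of fenestrated capillaries, fell by 0.52 ± 0.12 against the diabetic vehicle mice. Of the 5 measured genes of these capillaries it alone passed as lower, and Plpp3, named here after its values were seen and made by astrocytes as well, passed as higher in both comparisons (0.34 ± 0.057 and 0.40 ± 0.057). The sum of the 5 genes was 369.7 to 423.9 in FGF1 mice, above the 318.6 to 360.5 and 309 to 341.5 of the vehicle mice, and Plpp3 alone was at 259.1 to 307.6, 217.9 to 249.4 and 205.5 to 240. None of the 17 WNT genes passed in either comparison, and no pericyte, smooth muscle or arterial gene did. On Day 42 none of the genes of these lists passed.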

How the data were processed

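RNA-seq was measured in 47 hypothalamus libraries of ob/ob mice, 1 mouse each. The authors aligned reads with STAR and deposited raw counts per gene. The counting program is not given in the sources used here, and the genome build they name carries a human-style name. The deposited sample sheet served only to read the preparation codes. Groups came from the labels, and replicate numbers follow accession order. The p-values measure the spread between these mice.

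Counts were normalised by TMM and fitted over all 7 groups with edgeR 4.0.16 (quasi-likelihood) in R 4.3.3, with Benjamini-Hochberg adjustment over 14221 genes. The low-count filter removed 0 genes. Two-sided exact permutation tests used log2(CPM + 0.5), 50 per scale, and were run over all genes for the shares given beside the counts. Levels per kilobase used merged exons of GENCODE M21 (GRCm38), in which 14180 gene names were found. Alternatives were DESeq2 1.42.0, limma 3.58.1 (voom with quality weights), other size factors, filters, single days, merged vehicle groups and libraries left out. The edgeR procedure was tested on simulated data. Library totals of 1243280 to 47082403 counts set the precision.

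All 10 genes are named in every comparison, and of each other list at most the 3 DEGs with the largest log2 fold change, plus defining markers of other cell types. Some genes that this rule names are not reported here. Several genes stand on more than 1 list, so the counts of the lists are not of separate genes. The pan-endothelial and VEGF lists share Kdr, Tie1 and Ptprb, and the VEGF and arterial lists share Hey1 and Vegfc. The VEGF and fenestrated capillary lists share Esm1 and Nrp2, and the activation and venous lists share Icam1 and Ackr1. Slc38a5 is on the transporter and venous lists, and Tek is also on the fenestrated capillary list. The genes and lists were chosen with earlier results of these data known. No other measurements were analysed here.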

Additional observations from a re-analysis of the deposited data

Results flagged for a closer look

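Single mice stood apart from the rest of their group in 6 of the 70 sets of group values tested, by Dixon's test at the 95% level. Chance gives about 1 in 20. Mfsd2a was at 23.04 normalized counts in non-diabetic vehicle mouse 2 of Day 5. Slco1a4 was at 92.03 in vehicle mouse 2 of Day 1 and at 108.7 in diabetic vehicle mouse 1 of Day 5, the mouse in which Vwf was at 28.77. Tek was at 16.59 in FGF1 mouse 3 and at 12.55 in vehicle mouse 5 of Day 42.

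The FGF1 effect differed between days in 7 of 30 tests of the difference itself (edgeR). From Day 1 to Day 5 the log2 effect changed by 0.28 for Pecam1, 0.47 for Tek and −0.44 for Flt1. These are 3 of the 10 genes, where 12.4% of all genes passed as higher and 14.2% as lower. From Day 1 to Day 42 it changed by 0.61 for Mfsd2a, 0.64 for Slco1c1, −0.81 for Vwf and −0.67 for Flt1. These are 4 of the 10, where 11.2% of all genes passed as higher and 14.3% as lower. From Day 5 to Day 42 none of the 10 did, and 0.942% of all genes. Days and preparations cannot be told apart.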

How the results depend on the processing

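Over 1180 values of the 10 genes under alternatives, 1151 kept their side of the DEG rule, 7 were no longer DEGs, 22 became DEGs (or passed, where adjusted p alone was asked) and 0 reversed. In 35 the sign differed where neither value was a DEG. By adjusted p under 0.05, 14 passes were lost and 21 gained. DEGs among the 10 genes in the change from Day 1 to Day 5 numbered 0, and 1 with DESeq2 size factors, with DESeq2 or with at least 10 counts in every library, 3 by adjusted p alone, and 0 to 1 with a mouse left out. From Day 5 to Day 42 they numbered 0, 1 under limma, and 0 to 1 with a mouse left out. From Day 1 to Day 42 they numbered 4, and 2 under limma. Against the diabetic vehicle mice of Day 5 they numbered 2, and 4 by adjusted p alone. DEGs among the other lists on Day 5 numbered 9 against the non-diabetic vehicle mice, and 20 under limma, 4 with at least 10 counts, 15 with that day alone, 22 by adjusted p alone and 14 with merged vehicle groups. Against the diabetic vehicle mice they numbered 15, and 26, 23 and 29 under limma, with that day alone and by adjusted p alone. On Day 42, all-gene DEGs numbered 0, and 25 higher and 6 lower without FGF1 mouse 1. With a mouse left out, DEGs of the other lists ran from 0 to 1 on Day 42, and from 2 to 4, beside 4, for the change from Day 5 to Day 42. Over all genes, DEGs against the non-diabetic vehicle mice numbered 186 higher and 33 lower, and 350 and 88 under limma, 303 and 67 with that day alone, 122 and 14 with at least 10 counts, and 313 and 59 with merged vehicle groups. With at least 10 counts, Day 1 gave 898 higher and 711 lower, beside 1631 and 1145. The cause was not tested. Relative to the other pan-endothelial genes, a scale chosen after the data had been seen, exact p was under 0.05 for 7, 5, 5, 0 and 0 of the 10 genes in the 5 comparisons (and for 40.8, 65.1, 57.1, 2.95 and 1.31% of all genes), beside 4, 8, 8, 1 and 0 (39, 33.4, 39.4, 5.42 and 1.77%). The shallowest library moved no call of the 10, but the only junction and arterial genes lower on Day 1 did not pass without it. Day 1 precision is limited by its 4 vehicle mice. No paired analysis was possible because the labels carry no replicate numbers that tie mice of different groups.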
